A study of Mus musculus with 12 samples.

Results

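The CCAAT/enhancer-binding proteins (C/EBPs) are transcription factors, and 5 genes that carry the C/EBP name were measured in germ and somatic cells of the fetal mouse ovary. The members, Cebpa, Cebpb, Cebpd, Cebpg and Cebpz, were taken by gene name from the deposited counts of 54532 genes, and all 5 had counts in every library. The family was selected on the measured dex and saline levels of these same libraries, so its levels and responses are given as a description and the p-values are no independent support.

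C/EBPα, C/EBPβ and C/EBPδ are basic leucine zipper proteins that dimerise with each other, bind DNA and activate genes of fat, liver and myeloid cell differentiation. In cultured preadipocytes, Cebpb and Cebpd are early genes that respond to the hormone mixture used to start fat differentiation, which contains a glucocorticoid, and Cebpa follows later. C/EBPγ has the zipper but lacks a strong activation domain and pairs with other C/EBPs and with ATF4. Cebpz encodes a CCAAT-binding protein without a leucine zipper that is found in the nucleolus, so it shares the name but not the fold. In the adult ovary C/EBPα and C/EBPβ are known for their requirement in granulosa cells at ovulation.

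The cells came from E15.5 ovaries (E, embryonic day) freed of the mesonephros, from Tg(Pou5f1-EGFP)2Mnn embryos in which regulatory sequence of the pluripotency gene Pou5f1 (OCT4) drives a green fluorescent protein. Dams received 4 intraperitoneal injections, 1 a day from E12.5 to E15.5, either of dexamethasone (dex), a glucocorticoid drug, at a dose of 10 µg per g, or of saline alone. Sorting separated germ cells, which carry GFP, from somatic cells, which do not, and gave 4 groups of 3 libraries: germ dex, germ saline, somatic dex and somatic saline. Each library pooled ovaries of more than 1 litter. The somatic fraction was everything without GFP, a mixture of cell types, and in such bulk RNA fewer cells of a type and less RNA per cell cannot be told apart.

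Cebpa (ENSMUSG00000034957) and Cebpg (ENSMUSG00000056216) are neighbours on chromosome 7 of the GRCm38 mouse build, at 35119293 to 35121928 on the plus strand and at 35046422 to 35056573 on the minus strand, with 62719 bases between them. Cebpb (ENSMUSG00000056501) lies at 167688915 to 167690418 of chromosome 2 and Cebpd (ENSMUSG00000071637) at 15887286 to 15891031 of chromosome 16, both on the plus strand, and Cebpz (ENSMUSG00000024081) at 78919006 to 78937066 of chromosome 17 on the minus strand. Cebpa, Cebpb and Cebpd each had 1 exon in the annotation, whereas Cebpg had 2 and Cebpz had 16 in their longest coding transcript. The GC content of that transcript was 62.6% for Cebpa, 67.2% for Cebpb, 51.6% for Cebpd, 43.3% for Cebpg and 43.4% for Cebpz, against a median of 49.3% over 22527 coding genes. The intronless members thus included transcripts of very high GC content, Cebpb having more GC than 99.7% of those genes.

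RefSeq promoter windows of build GRCm38.p6 were found for 3 of the 5 members, Cebpa, Cebpb and Cebpg. The 250 bases before each start are shown because Cebpb rose with dex in somatic cells, while the other 2 did not pass the test. Capitals mark matches, on either strand, to 7 short motifs.
Cebpa, chr7:35119043-35119292, plus strand: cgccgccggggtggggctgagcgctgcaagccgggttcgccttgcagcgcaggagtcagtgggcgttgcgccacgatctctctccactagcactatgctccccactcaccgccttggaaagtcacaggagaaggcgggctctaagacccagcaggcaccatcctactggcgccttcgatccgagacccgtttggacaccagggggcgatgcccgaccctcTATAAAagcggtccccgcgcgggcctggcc
Cebpb, chr2:167688665-167688914, plus strand: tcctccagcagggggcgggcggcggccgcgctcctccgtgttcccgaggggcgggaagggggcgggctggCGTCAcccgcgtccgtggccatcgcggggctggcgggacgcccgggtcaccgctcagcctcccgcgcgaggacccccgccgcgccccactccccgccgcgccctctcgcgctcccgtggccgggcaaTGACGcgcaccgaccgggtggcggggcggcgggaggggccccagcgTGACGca
Cebpg, chr7:35056567-35056816, minus strand: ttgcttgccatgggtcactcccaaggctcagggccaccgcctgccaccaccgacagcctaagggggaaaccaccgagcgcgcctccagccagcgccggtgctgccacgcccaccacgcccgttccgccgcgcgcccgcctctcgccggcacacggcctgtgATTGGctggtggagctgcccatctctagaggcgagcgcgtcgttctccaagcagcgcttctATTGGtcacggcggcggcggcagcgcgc

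The capitals are a TATA box (TATAAA) at -30 of Cebpa, counted from the RefSeq start, 3 cores of the cyclic AMP response element (TGACG) at -180, -53 and -7 of Cebpb, and 2 CCAAT boxes (CCAAT) at -89 and -28 of Cebpg. The match at -180 and both CCAAT boxes lie on the opposite strand. The RefSeq start of Cebpg lies inside the gene as placed above, so the end of its window nearest the start includes bases of the gene. Over 32851 promoter windows of this length, 12.37% held TATAAA, 17.77% held TGACG and 33.85% held CCAAT. The full palindromic glucocorticoid response element, its 6-base core (AGAACA), a C/EBP site (TTGCNNAA) and the full cyclic AMP response element (TGACGTCA) had no match in these 3 windows and occurred in 0.009132%, 16.08%, 9.564% and 1.546% of all windows. Each core is part of its full element, so a match to a full element is also a match to the core. GC content was 66.4% for Cebpa, 81.6% for Cebpb and 70.8% for Cebpg, against a median of 52.4%, and these matches describe letters, not binding.

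Germ cell libraries held 14658503 to 17616664 counts and somatic libraries 15161804 to 18245507, and 3 counts, taken as the floor of detection, corresponded to 0.169 to 0.196 CPM (the count over the library's TMM-scaled size; floors cover counting error only). Pou5f1 averaged 19.2 CPM in germ saline and 20.5 CPM in germ dex libraries and at most 0.062 CPM in the somatic groups. Fkbp5, a standard glucocorticoid target, rose in somatic cells by 1.29 on the log2 scale (SE 0.08; edgeR BH-adjusted p = 2.61e-07, where BH is the Benjamini-Hochberg adjustment) and had a value of 0.33 in germ cells (edgeR BH-adjusted p = 0.162). The receptor gene Nr3c1 was measured at 160 CPM in germ saline and 84.2 CPM in somatic saline libraries and passed the test for dex in neither cell type (edgeR BH-adjusted p = 0.941 and 0.327).

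Dex was first compared with saline in somatic cells, where Cebpd and Cebpb were higher and the other members did not pass the test. Cebpd, which encodes the C/EBP known as a rapid target of glucocorticoids and inflammatory cytokines, measured 16.7, 14.8 and 16.6 CPM in the somatic saline libraries and 83.4, 82.1 and 62.7 CPM in the somatic dex libraries. Every dex library was far above every saline library, and the lowest was replicate 3. The change was 2.25 on the log2 scale (SE 0.11, 95% interval 2.01 to 2.50), a 4.77-fold rise (edgeR BH-adjusted p = 6.65e-08, n = 3 per group) and rank 10 by p-value of 16556 genes tested.

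Cebpb, which encodes the C/EBP that acts in granulosa cells, macrophages and early fat differentiation, measured 33.3, 34.7 and 45.4 CPM in somatic saline and 81.9, 91.3 and 63.8 CPM in somatic dex libraries. The groups were separate here as well, and the 3 replicates differed more among themselves than those of Cebpa or Cebpg. The rise was 1.07 on the log2 scale (SE 0.13, 95% interval 0.78 to 1.36), or 2.10-fold (edgeR BH-adjusted p = 0.000205).

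Cebpa, whose product acts in terminal differentiation of fat and myeloid cells, measured 26.0, 27.7 and 26.4 CPM in somatic saline and 18.5, 22.9 and 21.8 CPM in somatic dex libraries. All 3 dex libraries were lower than the 3 saline libraries, opposite in direction to Cebpb and Cebpd. The log2 difference of -0.33 (SE 0.11, 95% interval -0.57 to -0.09) did not pass after adjustment (edgeR BH-adjusted p = 0.0932). Cebpg, the partner without a strong activation domain, measured 36.8, 38.5 and 34.9 CPM in saline and 43.0, 41.5 and 38.7 CPM in dex libraries. These groups were separate by a narrow margin, with a log2 difference of 0.17 (SE 0.08, 95% interval -0.01 to 0.35; edgeR BH-adjusted p = 0.278). Cebpz overlapped between the groups, at 76.6, 68.3 and 69.3 CPM in saline and 82.2, 64.5 and 64.9 CPM in dex libraries (log2 difference -0.01, SE 0.09, edgeR BH-adjusted p = 0.966).

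Of the 5 members, 2 passed upward, 0 downward and 3 did not pass, and 4 had dex and saline libraries that did not overlap. Among all 16556 genes tested in somatic cells 8.18% passed, 4.81% upward and 3.36% downward, and 25.6% did not overlap; the members were chosen with this contrast known, so nothing is read from their share. The plot of levels by library shows these groups side by side.

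**Figure D1:**
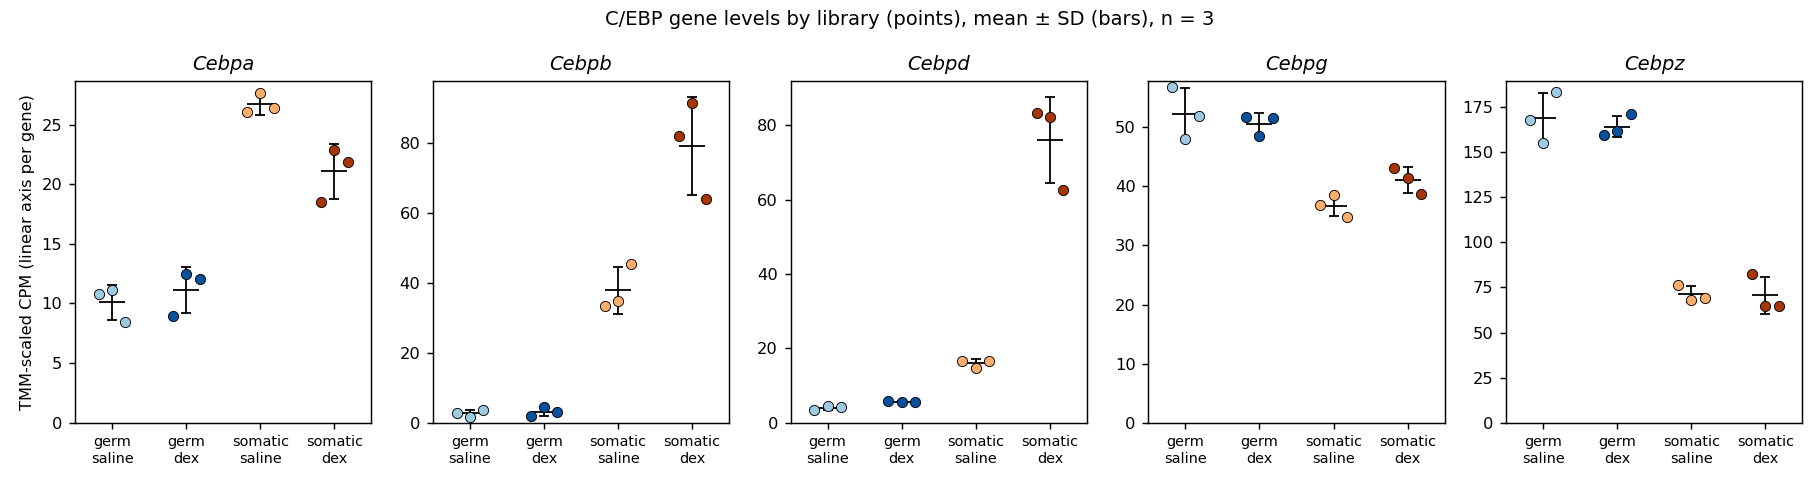
Levels of the 5 C/EBP genes in TMM-scaled CPM (linear axis, own range for each gene), with 1 point per library and bars for the mean ± SD of 3 libraries in each of the 4 groups. Cebpb and Cebpd rose in the somatic dex libraries, to means of 79.0 and 76.1 CPM, while Cebpg and Cebpz were higher in germ cells under either treatment.

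Cell type markers were set beside these changes. Macrophages, which express Cebpa and Cebpb, had lower markers after dex: 5 of 10 fell (Csf1r, Adgre1, Cd68, Mrc1 and Tyrobp), none had a positive change, none was at 0, and their summed level was 59.8 to 147 CPM in somatic dex against 198 to 258 CPM in somatic saline libraries. In the same comparison Cebpb and Cebpd rose, and Cebpa had a value of -0.33 that did not pass. Summed pregranulosa markers were 1259 to 1627 CPM in dex and 1522 to 1646 CPM in saline libraries, with 1 of 10 lower (Wnt4). Summed stromal markers were 19399.7 to 25619.9 and 20788 to 23157 CPM, with 1 of 8 higher (Pdgfra). Of the smaller lists, 1 of 7 endothelial markers rose and 2 fell, 1 of 6 perivascular and 1 of 8 erythroid markers rose, and 0 of 5 surface epithelium markers passed (edgeR; 1 had an unadjusted p under 0.05, and DESeq2 also called 0). Erythroid markers were uneven, at 3289.6 to 16524 CPM in somatic dex libraries. Of 7 germ markers 1, Dazl, rose in somatic cells, from 1.17 to 12.6 CPM, and 2 were at 0 in the somatic dex group. No list of granulocyte markers was set beside the members. The part of these marker differences in the C/EBP values was not tested.

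In germ cells no member passed the test. Cebpd measured 3.35, 4.37 and 4.18 CPM in germ saline and 5.88, 5.44 and 5.49 CPM in germ dex libraries, so all 3 dex libraries lay above all 3 saline libraries. The log2 difference was 0.52 (SE 0.20, 95% interval 0.08 to 0.95), with an unadjusted p of 0.0241 that did not survive adjustment (edgeR BH-adjusted p = 0.355). The difference of means, 1.64 CPM, was 2.73% of the somatic rise of 60.0 CPM. Germ cell libraries also carried somatic markers, at a median of 10.4% of the somatic level for pregranulosa, 11.8% for macrophage and 0.609% for stromal markers under dex and 6.65%, 4.52% and 0.626% under saline. The mean macrophage sum was 39.4 CPM in germ saline and 43.2 CPM in germ dex libraries, of which Mrc1 made up 31.7 and 33.7 CPM. In somatic cells that sum was 234 CPM in saline and 114 CPM in dex libraries, so the macrophage shares have unlike somatic levels beneath them. Between germ dex and germ saline libraries 10 of 10 pregranulosa markers (median log2 difference 0.40) and 5 of 5 tested perivascular markers (median 0.50) had positive values, the same direction as Cebpd, although none of them was called (edgeR; 0 and 1 had an unadjusted p under 0.05, and DESeq2 also called 0). Of tested stromal markers 4 of 8 were positive (median 0.02), and of macrophage markers 4 of 5 (median 0.12). Endothelial markers were positive in 2 of 4 tested (median -0.12), erythroid in 1 of 4 (-0.19) and surface epithelium in 1 of 3 (-0.75). The part of somatic RNA in the germ value of Cebpd was not tested.

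Cebpb was low in germ cells, at 2.77, 1.53 and 3.60 CPM in saline and 1.90, 4.53 and 3.04 CPM in dex libraries. Its groups overlapped widely (log2 difference 0.28, SE 0.37, 95% interval -0.52 to 1.07; edgeR BH-adjusted p = 0.807). The germ dex library with the most Cebpb, replicate 2, also had the highest summed pregranulosa markers, 152 CPM against 38.7 and 122 CPM in the other dex libraries. In germ saline the orders differed, since replicate 2 had the least Cebpb with markers at 83.8 CPM, between the 49.7 and 103 CPM of replicates 1 and 3. Cebpa measured 10.8, 11.1 and 8.41 CPM in germ saline and 8.96, 12.4 and 12.1 CPM in germ dex libraries, again with overlap (log2 difference 0.16, SE 0.18; edgeR BH-adjusted p = 0.763).

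Cebpg and Cebpz gave more germ cell counts than the other members. Cebpg measured 56.7, 48.1 and 51.9 CPM in saline and 51.7, 48.5 and 51.6 CPM in dex libraries, a log2 difference of -0.03 (95% interval -0.21 to 0.16; edgeR BH-adjusted p = 0.933). Cebpz measured 168, 155 and 183 CPM in saline and 160, 162 and 171 CPM in dex libraries, a difference of -0.02 (95% interval -0.17 to 0.13; edgeR BH-adjusted p = 0.933). These intervals are narrower than those of Cebpb and Cebpd, which had far fewer counts in germ cells. By edgeR 0 of 5 members passed, with 1 at an unadjusted p under 0.05 and 1 without overlap, and DESeq2 also called 0; 0.208% of 16857 genes passed, 0.089% upward and 0.119% downward, and 16.9% did not overlap.

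The difference between the 2 dex effects was then tested over all 12 libraries as the germ effect minus the somatic effect. Cebpd differed, by -1.75 on the log2 scale (SE 0.21, 95% interval -2.19 to -1.32; edgeR BH-adjusted p = 0.000174), so its response was smaller in germ cells. For Cebpb the difference of -0.80 (SE 0.37, 95% interval -1.59 to -0.01) did not pass (edgeR BH-adjusted p = 0.316), although without the low-count filter it did (edgeR BH-adjusted p = 0.0338). A different Cebpb response in the 2 cell types was therefore not settled, and its germ cell libraries held 26 to 70 counts. Cebpa had a difference of 0.48 (SE 0.21; edgeR BH-adjusted p = 0.275), Cebpg of -0.21 (SE 0.12; edgeR BH-adjusted p = 0.446) and Cebpz of -0.02 (SE 0.13; edgeR BH-adjusted p = 0.979). The 1 member of 5 that passed stood against 1.62% of 19390 genes, 1.13% in its direction and 0.49% in the other. The plot of dex effects shows the 3 estimates of each member.

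**Figure D2:**
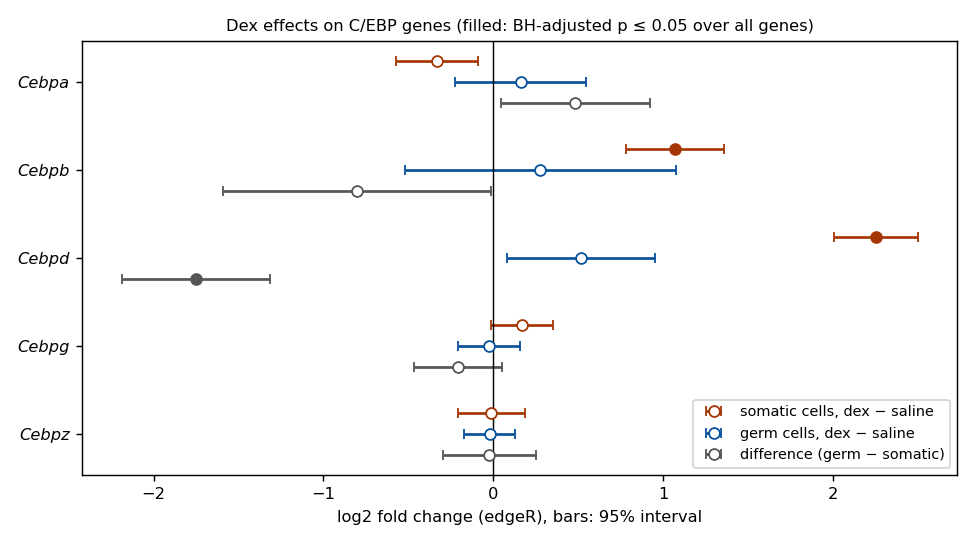
Log2 fold changes (dex over saline) of the 5 members for each cell type, and the germ minus somatic difference, with 95% intervals from edgeR; filled points passed (BH-adjusted p up to 0.05). The filled points are Cebpb (1.07) and Cebpd (2.25) in somatic cells and the Cebpd difference (-1.75).

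In the saline libraries the family was divided between the cell types. Cebpb was the most somatic member, at -3.84 on the log2 scale, germ minus somatic (SE 0.22; edgeR BH-adjusted p = 3.31e-10), followed by Cebpd at -2.01 (SE 0.17; edgeR BH-adjusted p = 3.45e-08) and Cebpa at -1.41 (SE 0.14; edgeR BH-adjusted p = 1.38e-07). Cebpz was higher in germ cells by 1.24 (SE 0.08; edgeR BH-adjusted p = 1.42e-09) and Cebpg by 0.50 (SE 0.09; edgeR BH-adjusted p = 0.000101). All 5 members passed, 2 upward and 3 downward in germ cells, where 86.1% of 17941 genes passed, 43.1% upward and 42.9% downward, and 87.2% had libraries that did not overlap, as had all 5 members. The germ cell level was 6.97% of the somatic level for Cebpb, 24.8% for Cebpd and 37.8% for Cebpa, compared with medians of 6.65% for pregranulosa, 4.52% for macrophage and 0.626% for stromal markers. In the dex libraries the shares were 3.998% for Cebpb, 7.37% for Cebpd and 52.9% for Cebpa, compared with medians of 10.4%, 11.8% and 0.609% for those lists, so the place of Cebpd against the markers differed between treatments. Its share was lower after dex because the somatic level rose from 16.0 to 76.1 CPM, while the germ level was 3.97 and 5.61 CPM. Endothelial, perivascular, erythroid and surface epithelium medians were 1.99%, 1.40%, 0.383% and 0.767% in saline and 1.47%, 1.21%, 0.368% and 0.387% in dex libraries. The part of somatic RNA in these germ cell levels was not tested.

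Levels of different genes were compared only per length, on the deposited FPKM scale. In somatic saline libraries the mean levels were 24.4 ± 4.29 FPKM for Cebpb, 14.9 ± 1.00 for Cebpz, 9.83 ± 0.280 for Cebpa, 6.34 ± 0.297 for Cebpg and 4.15 ± 0.296 for Cebpd (SD, n = 3). No neighbours in that order overlapped. After dex the somatic order was Cebpb at 51.2 ± 9.19 FPKM, Cebpd at 19.8 ± 3.11, Cebpz at 14.8 ± 2.20, Cebpa at 7.80 ± 0.817 and Cebpg at 7.13 ± 0.415. Cebpd thus moved from the last place to the second, though its lowest dex library (16.2 FPKM) lay below the highest value of Cebpz (17.3 FPKM). Cebpa and Cebpg also overlapped after dex, so their order was not beyond the spread.

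In germ cells Cebpz led at 36.3 ± 3.24 FPKM in saline and 35.2 ± 1.01 in dex libraries. Cebpg followed at 9.31 ± 0.857 and 8.98 ± 0.288 FPKM, and Cebpa at 3.83 ± 0.545 and 4.22 ± 0.717 FPKM. Cebpb (1.76 ± 0.701 and 2.10 ± 0.886 FPKM) and Cebpd (1.06 ± 0.136 and 1.49 ± 0.0691 FPKM) were last; the libraries of these last members overlapped in either group, and those of no other neighbours did. The order by mean was the same in both germ cell groups.

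The 4 members with a leucine zipper, Cebpa, Cebpb, Cebpd and Cebpg, can dimerise, and their summed level describes the pool of transcripts. In somatic cells the sum was 41.9, 42.9 and 49.4 FPKM in saline and 89.7, 96.2 and 72.1 FPKM in dex libraries. Cebpb and Cebpd together made up 61.8%, 60.9% and 68.1% of it in saline and 83.9%, 83.7% and 79.6% in dex libraries, while the mean share of Cebpa was 22.1% and 9.21% and that of Cebpg 14.3% and 8.37%. The pool was therefore larger after dex and its composition different in each of the 3 libraries. In germ cells the sum was 15.96 ± 1.13 FPKM in saline and 16.8 ± 1.24 FPKM in dex libraries, with Cebpg the largest part at 58.3% and 53.7%. The share of Cebpb and Cebpd there was 17.6% ± 3.89 and 21.2% ± 3.47 (SD, n = 3), with overlapping libraries. These sums and shares use the values that chose the family and carry no test.

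**Figure D3:**
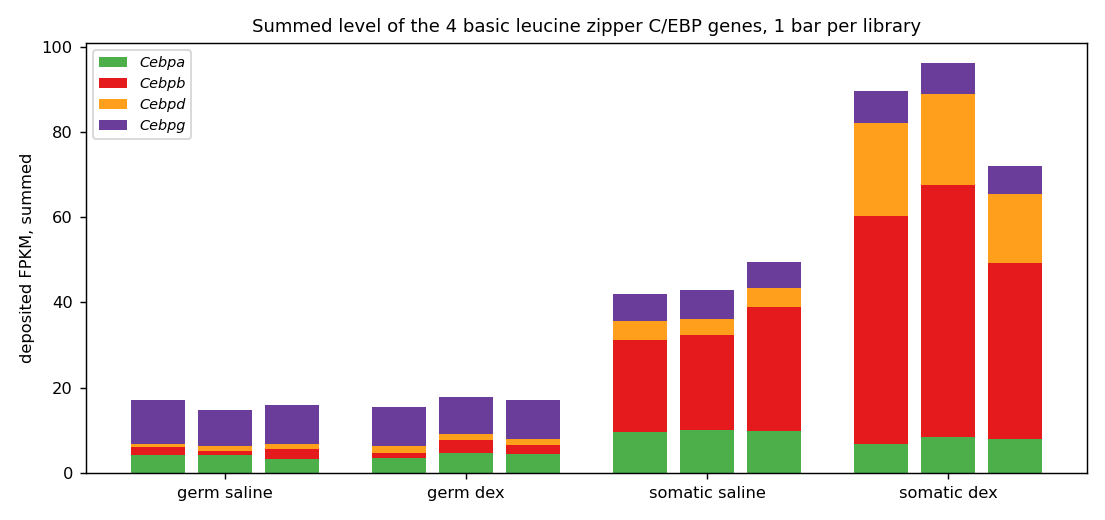
Summed deposited FPKM of the 4 leucine zipper members, 1 stacked bar per library, coloured by gene. The somatic dex bars reach 72.1 to 96.2 FPKM, mostly Cebpb and Cebpd, while the germ cell bars stay at 14.8 to 17.9 FPKM with Cebpg as the largest part.

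Relatives outside the 5 members did not pass the test for dex in somatic cells. Cebpe, the C/EBP of late granulocyte development, measured 0.935 CPM in somatic dex and 1.36 CPM in somatic saline libraries (log2 difference -0.53, SE 0.43; edgeR BH-adjusted p = 0.548), and its germ cell libraries held 0 to 3 counts. Ddit3, also called CHOP, an inhibitory zipper partner that is induced in the stress response, measured 16.3 and 17.1 CPM (log2 difference -0.06, SE 0.13; edgeR BH-adjusted p = 0.849).

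Genes of pathways around the C/EBPs were then described by list in somatic cells, 8 lists with 89 genes including these relatives, of which 74 were tested, 17 rose and 4 fell. The median log2 fold change of all genes tested was 0.00014, and 4.81% of them passed upward and 3.36% downward. The lists were chosen with earlier results of these data known, so nothing is read from their counts or medians. Listed genes given below with a value that did not pass, or as under the low-count filter, were named after their values were seen. Regulators upstream include the interleukin-6 family receptors, which signal through JAK and STAT3 to Cebpb and Cebpd, and the tribbles proteins that lead C/EBPα to degradation. Of 13 tested, 4 rose and 0 fell, with a median of 0.09, and 10 had positive values. Il6ra, the receptor for interleukin-6, went the other way, from 7.10 to 4.26 CPM, and did not pass (-0.72; edgeR BH-adjusted p = 0.102). Osmr, the receptor for oncostatin M, rose by 1.44 (SE 0.21; edgeR BH-adjusted p = 0.000725), from 3.36 to 9.08 CPM, and Lifr, the receptor for leukaemia inhibitory factor, by 0.61 (SE 0.07; edgeR BH-adjusted p = 6.72e-05), from 54.5 to 83.0 CPM. Jak1 (0.45) and Trib2 (0.30) also rose, and were named after their values were seen. Stat3 (0.20) and Socs3 (0.25), the signal transducer and its feedback inhibitor, did not pass (edgeR BH-adjusted p = 0.163 and 0.0810), and Il6 itself was under the low-count filter.

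ATF4 is a stress-response factor that pairs with C/EBPγ and C/EBPβ. Of 11 tested genes of this list 3 rose and 0 fell by edgeR, with a median of 0.20, while DESeq2 called 3 higher and 1 lower. Trib3, a pseudokinase induced by ATF4 and CHOP, rose by 1.70 (SE 0.47; edgeR BH-adjusted p = 0.0425), but only from 0.567 to 1.84 CPM, and lost the call without any 1 of 5 of the 6 somatic libraries (highest edgeR BH-adjusted p = 0.164). Nupr1, a small stress-induced chromatin protein, rose by 1.02 (SE 0.28; edgeR BH-adjusted p = 0.0376) and lost the call without somatic dex replicate 2 or any 1 somatic saline library (highest edgeR BH-adjusted p = 0.188). Shmt2, a mitochondrial serine enzyme named after its value was seen, rose by 0.48 (edgeR BH-adjusted p = 0.000604). Atf4 itself had a value of -0.18 and did not pass (edgeR BH-adjusted p = 0.0778).

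The adipogenic list holds genes that act with or after C/EBPs in fat differentiation, and 4 of 9 tested rose and 0 fell by edgeR, with a median of 0.81, while DESeq2 called 4 higher and 1 lower. Cd36, a fatty acid transporter, and Plin1, a lipid droplet protein, had values of -0.93 and -0.77 that did not pass (edgeR BH-adjusted p = 0.0727 and 0.268). Klf15, a glucocorticoid-induced factor, measured 1.82, 1.42 and 1.76 CPM in saline and 13.6, 14.2 and 13.3 CPM in dex libraries, a rise of 3.04 (SE 0.19; edgeR BH-adjusted p = 3.16e-07). Dgat2, which makes triglyceride, measured 11.2, 10.6 and 13.0 CPM in saline and 59.8, 63.6 and 54.0 CPM in dex libraries, a rise of 2.35 (SE 0.11; edgeR BH-adjusted p = 2.65e-08). Fabp4 (1.37) and Klf5 (0.81) rose as well and were named after their values were seen. Pparg, the nuclear receptor that acts together with C/EBPα in fat cells, and the fat hormone gene Adipoq were under the filter and not tested. Pparg measured 0.733 CPM in somatic saline and 0.313 CPM in somatic dex libraries, and Adipoq 0 and 0.0196 CPM. The master regulator and the adipocyte product of this list were thus low in somatic cells and carry no test of dex there, while Klf15 and Dgat2 rose. In germ cells Pparg measured 16.5 CPM in saline and 17.4 CPM in dex libraries. The response differed between the cell types for 4 listed genes, with a germ minus somatic difference of -2.78 for Klf15, -2.72 for Dgat2, -0.99 for Klf5 and -0.55 for Jak1 (edgeR BH-adjusted p between 4.35e-09 and 0.00772). Their germ cell values were 0.27, -0.35, -0.16 and -0.09 in that order, and none passed (edgeR BH-adjusted p between 0.137 and 0.696).

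Acute phase genes are liver targets of C/EBPβ and C/EBPδ. Of the 14 on the list only 7 passed the filter, and 3 of these rose and 0 fell, with a median of 1.39. The filter used the counts of these same libraries. Saa3 (0.338 CPM in somatic saline, 1.08 CPM in somatic dex) and Serpina3n (0.315 and 1.46 CPM) passed it, though neither was called. Orm2 (0.352 and 0.0594 CPM) went the other way and was filtered out. The direction and median of this list therefore depend in part on the filter. Lcn2, an iron-siderophore binding protein, rose by 1.86 (SE 0.27; edgeR BH-adjusted p = 0.000633), from 2.56 to 9.27 CPM, and the complement gene C3 by 1.39 (SE 0.19; edgeR BH-adjusted p = 0.000403), from 5.63 to 14.7 CPM. Cp, the copper protein ceruloplasmin, rose by 1.38 and was named after its value was seen. The liver genes Orm1, Fga and Saa2 had no counts in somatic cells.

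Granulosa and ovulatory genes, several of which depend on C/EBPβ in the adult ovary, passed in 1 of 9 tested, with a median of -0.08. Ptgs2, which encodes the inducible prostaglandin synthase, rose by 1.15 (SE 0.21; edgeR BH-adjusted p = 0.00375), from 4.58 to 10.1 CPM. Star and Cyp11a1, of steroid synthesis, had values of 0.18 and -0.08 and did not pass (edgeR BH-adjusted p = 0.646 and 0.961).

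The myeloid list moved in both directions, with 2 of 11 tested higher, 3 lower and a median of -0.36, and 5 of the 11 had positive values. The largest uncalled values in each direction were those of Ltf (1.07) and Itgam (-0.94), with edgeR BH-adjusted p = 0.0944 and 0.393. The neutrophil genes S100a8 and S100a9 rose by 1.31 (SE 0.37, edgeR BH-adjusted p = 0.0461) and 1.18 (SE 0.27, edgeR BH-adjusted p = 0.0155), and neither passed by DESeq2 (BH-adjusted p = 0.239 and 0.0746). The growth factor receptors Csf3r and Csf1r fell by 1.72 (SE 0.43; edgeR BH-adjusted p = 0.0259) and by 1.31 (SE 0.26; edgeR BH-adjusted p = 0.00634), and Lyz2, lysozyme, named after its value was seen, by 0.85. Csf1r is also a macrophage marker, and the summed macrophage markers given above were lower in the same libraries. S100a8 lost the call without any 1 of 5 somatic libraries, S100a9 without somatic dex replicate 2 (0.0864) or somatic saline replicate 3 (0.0511), and Csf3r without any 1 saline library (highest edgeR BH-adjusted p = 0.111).

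Nucleolar proteins, the setting in which CEBPZ is found, passed in 1 of 12, with a median of -0.03. Bop1, of ribosome assembly, fell by 0.38 (SE 0.09; edgeR BH-adjusted p = 0.0216) and lost the call without somatic dex replicate 2 or any 1 saline library (highest edgeR BH-adjusted p = 0.105). In germ cells edgeR called 0 of the 55 listed genes that were tested, against 0.208% of all genes tested. Of the 55, 4 had an unadjusted p under 0.05, and DESeq2 called 1, lower with dex, in the adipogenic list. The plot of listed genes shows the somatic values.

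**Figure D4:**
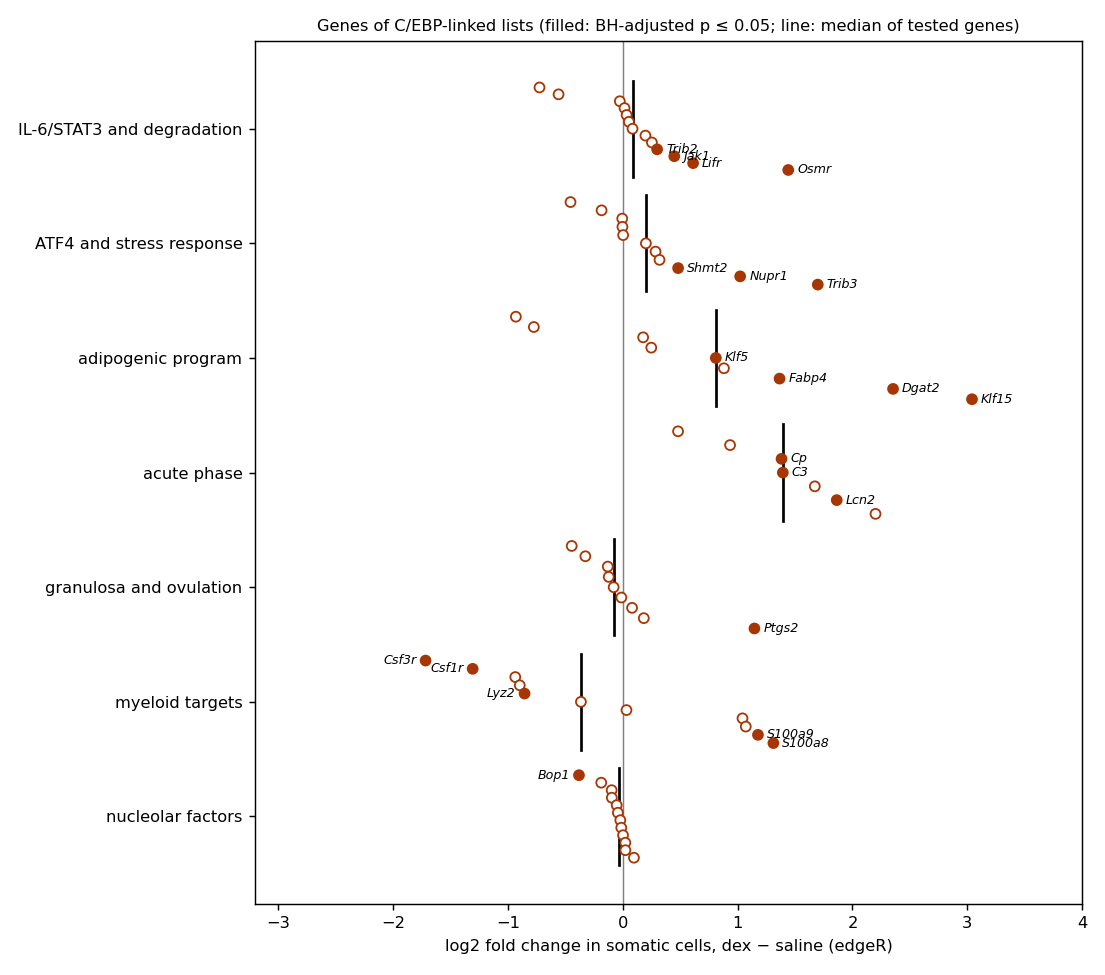
Somatic log2 fold changes (dex over saline, edgeR) of the tested genes in 7 lists, 1 point per gene, filled where the BH-adjusted p was at most 0.05, with a line at the median of each list. The medians run from -0.36 in the myeloid list to 1.39 in the acute phase list, and the filled points lie to the right except in the myeloid and nucleolar lists. Only genes past the low-count filter are shown, 7 of 14 in the acute phase list.

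Several members share exon bases with another gene, and whether counting used strand is not given, so reads there could be split or lost. Cebpd shares 562 of its 3746 exon bases with Spidr on the other strand, a DNA repair gene that itself rose in somatic cells by 0.47 (SE 0.09; edgeR BH-adjusted p = 0.00398), from 32.4 to 44.6 CPM. Cebpb shares 312 of its 1504 exon bases with Tmem189 on the other strand, which had a value of 0.21 (edgeR BH-adjusted p = 0.396). Spidr measured 81.6 and 79.9 CPM in germ saline and germ dex libraries. The part of shared bases in the member values was not tested. Cebpz shares 171 bases (3.67%) with Cebpzos, Cebpa 51 bases (1.93%) with the antisense gene Gm45091, and Cebpg 73 and 4 bases with Gm44836 and Gm45095.

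The genes whose pattern over the 12 libraries was most like each member were ranked by the root-mean-square difference of log2(CPM + 0.5), each gene centred on its own mean, over 16137 genes whose mean was 1 CPM or more. For Cebpd these were C530044C16Rik, a long noncoding RNA (0.256), Mmp8, a collagenase (0.263), and Spock2, a proteoglycan (0.287), which rose in somatic cells by 2.06, 2.39 and 2.05. In germ saline and germ dex libraries C530044C16Rik measured 0 and 0.0218 CPM and Mmp8 0.0197 and 0.0436 CPM, under the floor. The added 0.5 compresses values that low, and Cebpd measured 3.97 and 5.61 CPM there. For Cebpb the nearest genes were Rassf2 (0.232), Shisa9 (0.283) and Hpgd, which degrades prostaglandins (0.286), with somatic rises of 0.85, 0.76 and 0.74. Cebpa was nearest to C2cd2l (0.120), Sema5b (0.137) and Adgrl2 (0.138), whose somatic values of -0.19, -0.10 and -0.19 did not pass. Cebpg was nearest to Zfp280d (0.0538), Zfp526 (0.0566) and Tnks (0.0599), and Cebpz to Clcn7 (0.0656), Cherp (0.0720) and Ube2o (0.0771). The nearest genes of Cebpb and Cebpd were farther from them than those of the other members. All were ranked on the same 12 libraries, so their somatic changes follow from the choice and only describe the likeness.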

How the data were processed

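The members, gene lists and tests were chosen with earlier results of these data known. The authors aligned paired reads to mm10 with HISAT2 2.0.5 and counted them with featureCounts 1.5.0-p3, per the labels and the study's methods; the strand setting is not given in the sources used here. Values deposited by the authors were raw counts for 54532 genes and FPKM, which the authors made from those counts, gene length and depth. Separate deposited tables held the authors' own DESeq2 fold changes and p-values of dex against saline and were not used.

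Counts were tested as deposited with edgeR 4.0.16 (R 4.3.3): TMM scaling, filterByExpr, quasi-likelihood F test, no covariate, Benjamini-Hochberg (BH) adjustment over all genes tested, call at 0.05. Dex was compared with saline within each cell type, the difference over all 12 libraries, and germ with somatic cells in saline. Standard errors come from the F statistic; intervals are 95%. Levels are CPM with TMM factors over 12 libraries. The code was tested on simulated data. Named genes were the members, Cebpe and Ddit3, up to 2 largest called rises and falls of each list in somatic cells, 3 nearest profiles per member, Fkbp5, Pou5f1 and Nr3c1. Alternatives were DESeq2 1.42.0, its size factors in edgeR, no filter, each library left out and a replicate block. Promoter sequences are RefSeq's. The labels call the replicates biological; all replicate pairs differed beyond counting noise (chi-square per gene 5.48 to 21.8).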

Additional observations from a re-analysis of the deposited data

Results flagged for a closer look

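These results were flagged because the dex effect differed between germ and somatic cells by the test of the difference over 12 libraries (germ minus somatic, log2). The difference was -1.75 for Cebpd (SE 0.21; edgeR BH-adjusted p = 0.000174), -2.78 for Klf15 (SE 0.27; edgeR BH-adjusted p = 2.37e-05), -2.72 for Dgat2 (SE 0.14; edgeR BH-adjusted p = 4.35e-09), -1.79 for Spock2 (SE 0.18; edgeR BH-adjusted p = 4.59e-05) and -0.97 for Fkbp5 (SE 0.12; edgeR BH-adjusted p = 0.000328). Klf15 and Dgat2 were higher in germ than in somatic saline libraries, by 2.39 and 2.28 on the log2 scale, so the somatic libraries reached 13.7 and 59.1 CPM after dex against 8.78 and 56.5 CPM in germ saline libraries. The dex value of Dgat2 in germ cells was -0.35, while those of Cebpd, Klf15, Spock2 and Fkbp5 were 0.52, 0.27, 0.26 and 0.33. By edgeR none of these germ values passed (BH-adjusted p = 0.137 for Dgat2 and 0.162 for Fkbp5). DESeq2 called 1 gene of the adipogenic list, which holds Klf15 and Dgat2, lower with dex in germ cells. For Spidr, which overlaps Cebpd, the difference was -0.49 (SE 0.11; edgeR BH-adjusted p = 0.0290), and it lost the call in 9 of 12 omissions of 1 library.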

How the results depend on the processing

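Of 230 alternative values for the 5 members, 217 kept direction and call, 0 lost a call, 1 gained one and 12 turned. The Cebpb difference gained a call without the low-count filter (-0.80, edgeR BH-adjusted p = 0.0338). The values that turned were all uncalled and near 0, each with 1 library left out: Cebpb in germ cells (range -0.080 to 0.56; -0.080 without germ dex replicate 2 and -0.0067 without germ saline replicate 2), Cebpg in germ cells (-0.091 to 0.043), Cebpz in germ cells (-0.086 to 0.034), Cebpz in somatic cells (-0.13 to 0.044) and the Cebpz difference (-0.078 to 0.12). With 1 library left out the somatic rise was 2.18 to 2.37 for Cebpd and 0.94 to 1.22 for Cebpb, and the Cebpd difference -1.86 to -1.66, all still called. Of 450 values for the other named genes 35 lost and 1 gained a call (Adgrl2 without somatic dex replicate 3) and 8 turned, the uncalled Cherp (-0.068 to 0.055, and -0.0018 without the filter), Cebpzos (-0.23 to 0.15) and Ddit3 (-0.20 to 0.027).

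Counts of called genes moved more. In germ cells the 35 calls became 158 by DESeq2, 420 without the filter and 17 to 81 with 1 library left out (81 without dex replicate 1, 17 without dex replicate 2 or saline replicate 3). In somatic cells 1354 became 754 to 1881 (856 without dex replicate 2, and 888, 756 and 754 without saline replicates 1, 2 and 3), and for the difference 314 became 620 by DESeq2, 727 without the filter and 143 to 384 with 1 library left out. The cause was not tested.

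With the replicate number as a block 49 genes passed in germ cells, 1520 in somatic cells and 15283 between cell types in saline. For the difference each block joined the germ and somatic library of the same treatment and number, and 222 genes passed. Among the named results the block ended only the call of the Spidr difference (-0.49, edgeR BH-adjusted p = 0.0744). Between dex and saline of 1 cell type, same-numbered libraries deviated together weakly (r 0.013 to 0.215 in germ and -0.016 to 0.116 in somatic cells), while germ and somatic libraries of 1 treatment each correlated best with their own number (r 0.080 to 0.134), a hint from the data and not from the design. Cebpb had 26 to 70 and Cebpd 52 to 92 counts per germ cell library.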
